A study of Mus musculus with 4 samples.

Results

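The cadherins and protocadherins are surface proteins through which cells of one tissue hold on to each other, and 48 of their genes had values in RNA sequencing of mouse dorsal root ganglia, which house the cell bodies of sensory neurons. They were taken by name, as the rows whose gene name begins with Cdh and a digit or with Pcdh, from a matrix of 14405 genes. They comprised 12 cadherins, 7 protocadherins that lie alone in the genome and 29 protocadherins of the gene clusters on chromosome 18. In the GENCODE M21 annotation 91 protein-coding genes carry such names, and the other 43 were not analysed here. The mutant group had 2 samples labelled Prdm12-/Fl; AvilCreERT2/+, which have 1 null and 1 floxed allele of Prdm12 and 1 copy of a tamoxifen-inducible Cre under Avil, a sensory neuron gene. The wild type group had 2 samples, for which no Cre or Prdm12 allele is named, so the null allele, the Cre and the induced loss cannot be told apart. All were aged 10 weeks and of mixed strain. The Cre acts in neurons that use Avil, so glia, vessels, fibroblasts and meninges keep the floxed allele while every cell of the mutants carries the null one, and when tamoxifen was given is not stated in the sources used here. The study asks what the loss of Prdm12, which encodes a zinc finger regulator needed for pain-sensing neurons, does in the adult.

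Classical cadherins bind the same cadherin on the next cell in the presence of calcium, and their tails hold catenins that link them to actin. Different cell types use different cadherins, which helps to keep neurons, Schwann cells, endothelium and connective tissue sorted within a nerve or ganglion. Protocadherins share the outer repeats but lack the catenin-binding tail. In the clustered protocadherins each neuron switches on its own few promoters, and the resulting mix lets a neuron tell its own branches from those of its neighbours.

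The values are FPKM, read fragments scaled to transcript length and library size, so levels of different genes can be set beside each other. Totals over the matrix were 620018 to 686830 FPKM, and the depth in reads is unknown. Prdm12 was at 1.05 and 1.50 FPKM in the mutants, against 7.58 and 10.7 FPKM in wild type (log2 difference -2.14, limma adjusted p = 0.180). All 12 neuron markers reached 1 FPKM in every sample, with sums of 4460 and 7370 FPKM in the mutants and 4130 and 5730 FPKM in wild type, whereas of 7 spinal cord markers only Gfap and Aqp4 had rows, at 2.47 to 6.10 and at 0.898 to 1.15 FPKM over the 4 samples. Samples of the same group differed widely in markers of skeletal muscle and adipocytes. Summed skeletal muscle markers were at 134 and 4950 FPKM in the mutants and at 313 and 2400 FPKM in wild type, and summed adipocyte markers at 276 and 2290 FPKM in the mutants and at 470 and 748 FPKM in wild type. Unlike the muscle sum, Myh1 and Myh2 were highest in wild type 2 (28.4 and 11.3 FPKM, against 3.62 and 0.861 FPKM in mutant 2). The source of these markers was not tested. The Y-linked gene Eif2s3y was near 0 in wild type 2 alone (0.0252 FPKM, against 21.3 to 24.7 FPKM in the others).

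Most of the family was faint. The 5 members with a mean over 10 FPKM were, in falling order, Cdh1 (34.5 FPKM), Cdh19 (27.7), Cdh11 (23.4), Cdh5 (22.3) and Pcdhgc3 (22.2). Cdh2 (6.44 FPKM) and Pcdhac2 (5.96) followed, and the other 41 lay under 5 FPKM. By what is known of them, Cdh1 belongs to several cell types, Cdh19 to the Schwann lineage, Cdh11 to connective tissue and Cdh5 to vessels. Pcdhgc3 was the single clustered protocadherin among these 5. Over the 7 highest members, the samples of neighbours in the order overlapped, except between Pcdhgc3 and Cdh2. Summed over the 48 members, the mutants held 208 and 201 FPKM, against 231 and 223 FPKM in wild type. As a share of the summed FPKM of the matrix that was 0.033% and 0.0293% in the mutants, against 0.0372% and 0.0331% in wild type.

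**Figure D1:**
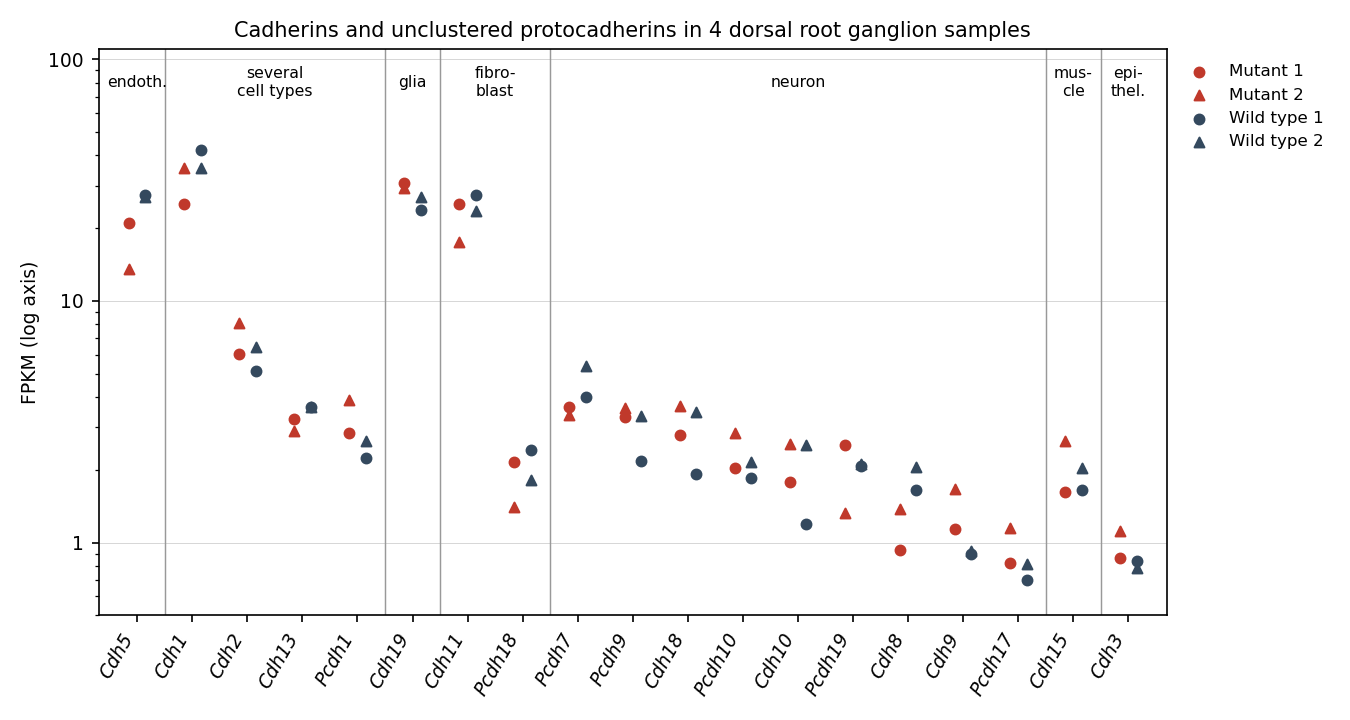
FPKM of the 12 cadherins and 7 unclustered protocadherins (log axis) in each sample, mutants in red left of wild type in dark blue, grouped by the cell type known to express each gene. Cdh1, Cdh19, Cdh11 and Cdh5 lie at 13.6 FPKM or above in every sample, and the neuronal members between 0.70 and 5.39 FPKM.

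No member passed the test of mutant against wild type. Of the 43 members that averaged 1 FPKM or more in one of the groups, 0 reached an adjusted p of 0.05 with limma on log2(FPKM + 1), where 0% of the 14040 genes tested did so in either direction. At an unadjusted p under 0.05 there was 1 member, Cdh5, or 2.33% of those tested, where 4.36% of all genes lay (1.35% higher and 3.01% lower in the mutants). Both mutants stood above both wild types for 5 members (11.6%) and below them for 14 (32.6%), against 12.5% and 19.6% of all genes. The median log2 difference, mutant minus wild type, was -0.08 over the members and -0.005 over all genes, and 27 of the 43 differences were negative. Pcdhb14, Pcdhb16, Pcdhb18, Pcdhga8 and Pcdhga12 passed the limit only through wild type, and Cdh9, Pcdha12 and Pcdhga5 only through the mutants. The counts by direction thus follow in part from that limit. The smallest adjusted p among the members was 0.994. With 2 samples a group, an exact two-sided permutation test cannot give a p below 0.333.

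**Figure D2:**
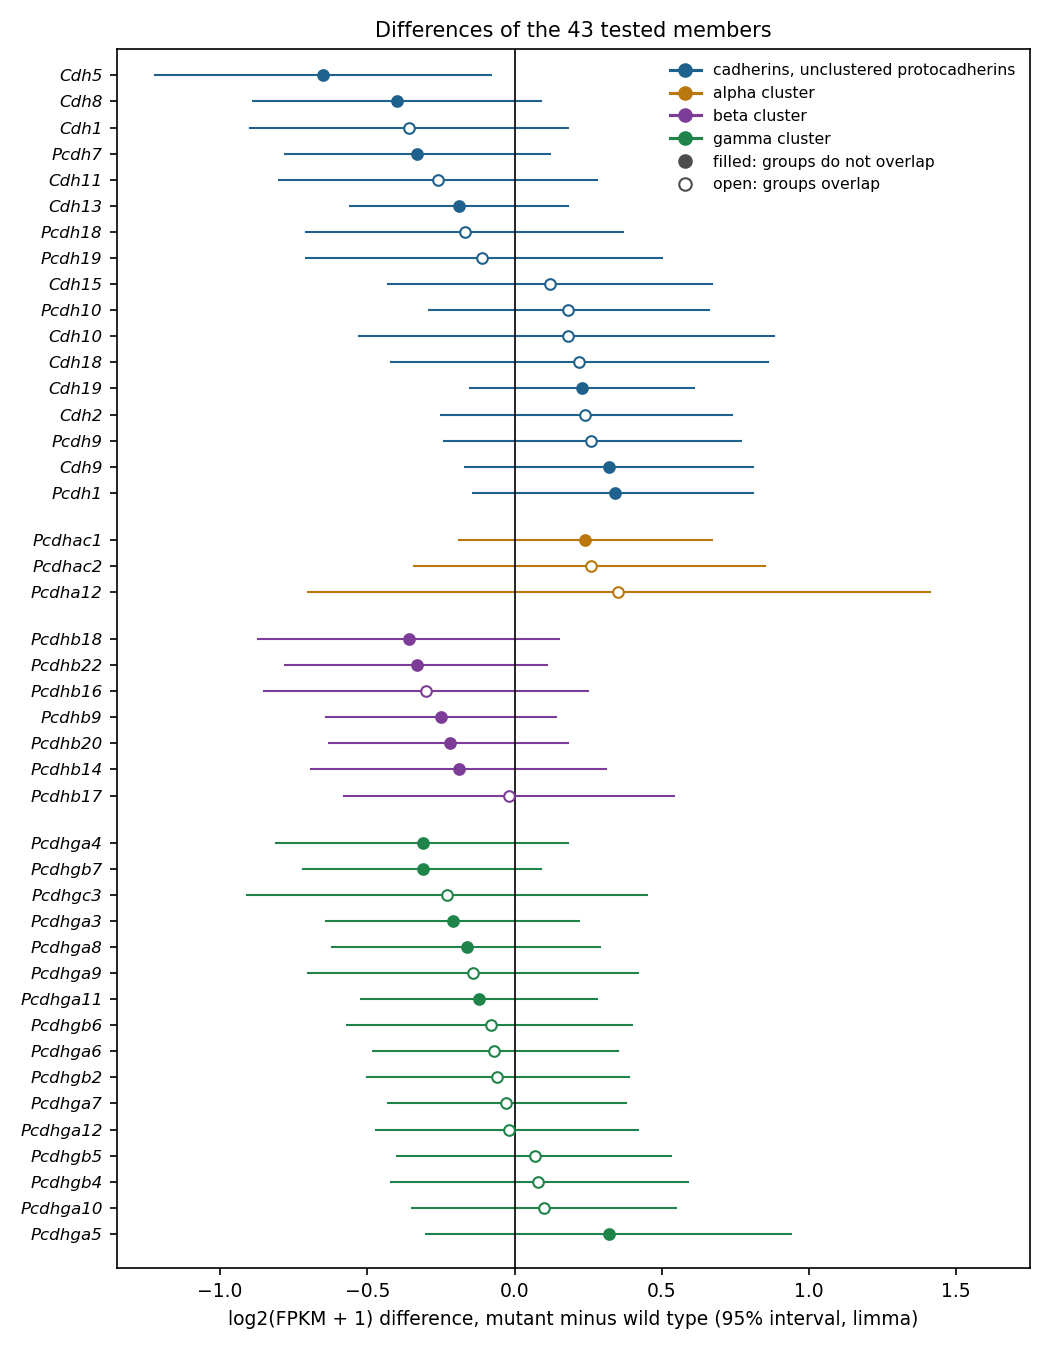
Difference in log2(FPKM + 1), mutant minus wild type, of the 43 tested members with its 95% interval from limma, in blocks for the unclustered members and the 3 clusters. Only the interval of Cdh5 (-1.22 to -0.08) leaves out 0. The 7 tested beta cluster members all lie on the negative side, though Pcdhb14, Pcdhb16 and Pcdhb18 passed the limit for the test only through wild type.

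Cdh5 encodes VE-cadherin, the cadherin of endothelial adherens junctions, and lies on chromosome 8 at 104101625 to 104144511 (GENCODE M21, GRCm38, the assembly of mm10). It was at 21.1 and 13.6 FPKM in the mutants, against 27.5 and 26.9 FPKM in wild type. Both mutants were lower and mutant 2 was the lowest, while the wild types were close together. The means were 17.4 ± 5.30 FPKM in the mutants and 27.2 ± 0.459 FPKM in wild type (SD, n = 2 each), 1.57-fold lower in the mutants. The log2 difference was -0.65 (standard error 0.228, limma adjusted p = 0.994, unadjusted 0.0327). Without mutant 2 it was -0.35, and without mutant 1 it was -0.95.

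Other endothelial markers overlapped between the groups except for 1, which was lower in the mutants, where 19.6% of all genes were lower without overlap. The 10 genes summed to 185 and 191 FPKM in the mutants, against 189 and 190 FPKM in wild type, and all 10 reached 1 FPKM in every sample. Ly6c1 and Egfl7, with means of 60.6 and 50.3 FPKM, make up most of that sum. Of the 10 differences 7 were negative, with a median of -0.05, and 6 markers (Pecam1, Emcn, Flt1, Kdr, Tek and Tie1) were lowest in mutant 2, as Cdh5 was. Their part in the level of Cdh5 was not tested. Flt1, a receptor for vascular endothelial growth factor, was at 3.72 and 2.05 FPKM in the mutants and at 4.35 and 4.01 FPKM in wild type, the only one of the 10 without overlap. Pecam1, an adhesion molecule of endothelial junctions, was at 16.4 and 12.6 FPKM in the mutants and at 15.3 and 20.0 FPKM in wild type, and Cldn5, a tight junction claudin of vessels, at 11.6 and 16.8 FPKM in the mutants and at 14.3 and 12.8 FPKM in wild type. In bulk tissue, fewer cells of a type and less RNA per cell cannot be told apart.

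VE-cadherin is also known from the arachnoid, the middle layer of the meninges, as is E-cadherin. Markers of arachnoid and meninges were lower in both mutants in 10 of 10 genes, where 19.6% of all genes were. Their sums were 3530 and 3230 FPKM in the mutants, against 13900 and 13600 FPKM in wild type. Their median log2 difference was -1.42 and none was at 0. In limma 9 of them were lower at an unadjusted p under 0.05, where 3.01% of all genes were. Several of these markers were known to be low in these mutants when the list was written. Ptgds, prostaglandin D synthase, makes up most of the sum. Aldh1a2, which makes retinoic acid in the meninges, was at 27.5 and 18.8 FPKM in the mutants, against 99.5 and 75.7 FPKM in wild type (log2 difference -1.89, limma adjusted p = 0.247). The part of the meninges in the level of Cdh5 or Cdh1 was not tested.

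Cdh1 encodes E-cadherin, the cadherin of epithelium, which in nerve also joins the folds of a Schwann cell to themselves. It lies on chromosome 8 at 106603351 to 106670246 and was the most abundant member. It was at 25.1 and 35.5 FPKM in the mutants, against 42.1 and 35.5 FPKM in wild type. Mutant 1 was low and wild type 1 high, and mutant 2 and wild type 2 were nearly equal, so the groups overlapped (log2 difference -0.36, 95% interval -0.90 to 0.18, limma adjusted p = 0.994). Without mutant 1 the difference was -0.12, and without mutant 2 it was -0.60.

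The other members found in several cell types were split. Cdh2, N-cadherin of neurons and glia, was at 6.05 and 8.12 FPKM in the mutants and at 5.14 and 6.46 FPKM in wild type, with overlap (log2 difference 0.24). Cdh13 encodes T-cadherin, held to the membrane by a lipid anchor and known from vessels and neurons. It was at 3.25 and 2.89 FPKM in the mutants, against 3.63 and 3.64 FPKM in wild type, lower in both mutants (log2 difference -0.19). Pcdh1, an unclustered protocadherin of epithelium and other tissues, was higher in both mutants, at 2.84 and 3.90 FPKM, against 2.24 and 2.64 FPKM in wild type (log2 difference 0.34). For each of these the limma adjusted p was 0.994.

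Among glial members only Cdh19, a type II cadherin that marks the Schwann cell lineage, had a row. It lies on chromosome 1 at 110888326 to 110977584. It was at 30.7 and 29.2 FPKM in the mutants, against 23.8 and 27.0 FPKM in wild type, higher in both mutants with a narrow gap. The means were 29.9 ± 1.11 FPKM in the mutants and 25.4 ± 2.27 FPKM in wild type (SD, n = 2 each), a log2 difference of 0.23 (95% interval -0.15 to 0.61, limma adjusted p = 0.994). It lay between 0.14 and 0.32 when 1 sample was left out. Markers of myelinating Schwann cells summed to 10300 and 21500 FPKM in the mutants, against 10400 and 8340 FPKM in wild type. Of these 12 markers 8 were higher in both mutants, where 12.5% of all genes were. Cdh19 did not share the high value of mutant 2, since its 2 mutant samples were close together. Of 6 satellite glia markers with rows, 2 were higher and 1 lower without overlap, where 12.5% and 19.6% of all genes were. The 6 markers summed to 5520 and 5610 FPKM in the mutants and 5380 and 6480 FPKM in wild type.

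The fibroblast members were lower on average in the mutants, with overlap. Cdh11, the cadherin of mesenchyme and bone-forming cells, lies on chromosome 8 at 102632095 to 102785642. It was at 25.2 and 17.5 FPKM in the mutants, against 27.4 and 23.6 FPKM in wild type (log2 difference -0.26, limma adjusted p = 0.994). Mutant 2 was the lowest, and without it the difference was -0.01. Pcdh18, a protocadherin of embryonic mesenchyme, was at 2.16 and 1.40 FPKM in the mutants and at 2.42 and 1.81 FPKM in wild type (log2 difference -0.17). The summed fibroblast markers followed the same order of samples as Cdh11 apart from wild type 1 and mutant 1. Their sums were 6580 and 3610 FPKM in the mutants and 6400 and 5060 FPKM in wild type, with Dcn (mean 3100 FPKM) the largest part. Single markers differed in order. Of the 8, 5 were lowest in mutant 2, as Cdh11 was, and 3 (Col1a1, Col3a1 and Mfap5) in wild type 2. Of the 8 markers 1 was lower without overlap, where 19.6% of all genes were.

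**Figure D3:**
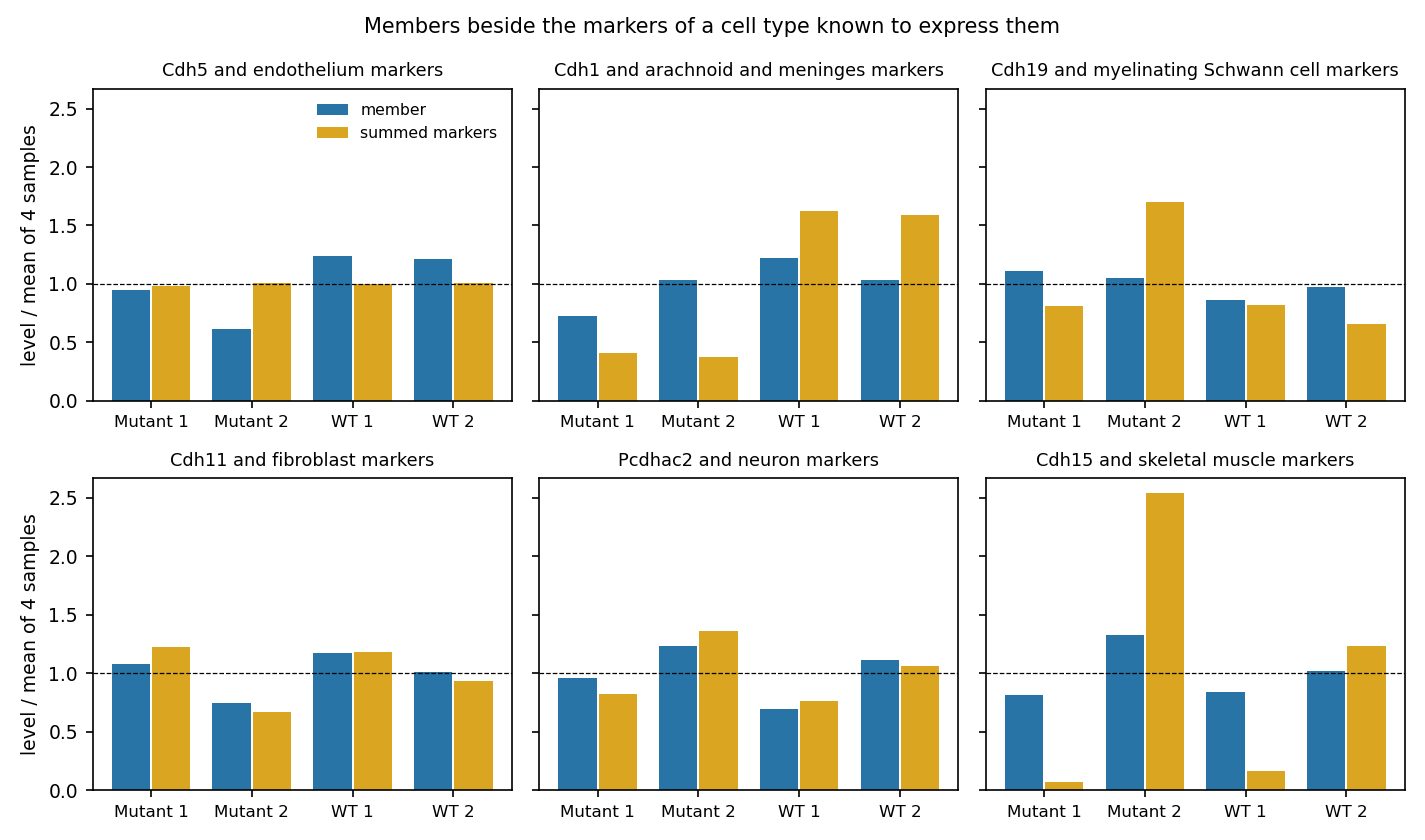
Level of 6 members (blue) and summed FPKM of the markers of a cell type known to express each (yellow), per sample, each divided by its mean over the 4 samples, mutants left of wild type (WT). Cdh5 is lower in both mutants, while the endothelial sum, mostly Ly6c1 and Egfl7, is level although 6 of its 10 markers are lowest in mutant 2, and Cdh15 varies far less than the skeletal muscle markers.

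Neuronal members were scarce in RNA, at means of 0.873 to 4.10 FPKM. Of the 9 with rows, 8 were tested, 1 was higher and 2 were lower without overlap, where 12.5% and 19.6% of all genes were, and the median log2 difference was 0.18. Their sums were 19.0 and 21.6 FPKM in the mutants and 16.5 and 22.8 FPKM in wild type. Without wild type 1 the median was -0.10, and without mutant 1 it was 0.31.

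Cdh8 is a type II cadherin known in mice from the synapses of cold-sensing neurons in the spinal cord. It was at 0.936 and 1.38 FPKM in the mutants, against 1.65 and 2.05 FPKM in wild type, lower in both mutants (1.16 ± 0.316 against 1.85 ± 0.282 FPKM, SD, n = 2 each). The log2 difference was -0.40 (95% interval -0.89 to 0.09, limma adjusted p = 0.994), and it lay between -0.55 and -0.25 when 1 sample was left out. Cdh9, a type II cadherin of synapses in hippocampus and retina, was higher in both mutants, at 1.14 and 1.67 FPKM in the mutants, against 0.901 and 0.921 FPKM in wild type (log2 difference 0.32, limma adjusted p = 0.994). Cdh9 passed the limit for the test only through the mutants. Cdh8 and Cdh9 both have exons that overlap an annotated gene on the other strand. Whether the libraries keep the strand is not stated in the labels.

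Pcdh7, a delta-1 protocadherin and the most abundant neuronal member, was at 3.63 and 3.38 FPKM in the mutants, against 4.01 and 5.39 FPKM in wild type. Both mutants were lower, with wild type 2 the farthest apart (log2 difference -0.33, 95% interval -0.78 to 0.12, limma adjusted p = 0.994), and without wild type 2 the difference was -0.15. An antisense gene overlaps its exons too. Pcdh9, also a delta-1 protocadherin, was at 3.32 and 3.60 FPKM in the mutants and at 2.18 and 3.34 FPKM in wild type, where mutant 1 lay just under wild type 2 (log2 difference 0.26).

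The promoter windows of Cdh8, Cdh9 and Pcdh7 are shown because these are the tested neuronal members whose groups did not overlap. Each holds 250 bases before and 50 bases after the start site in RefSeq on GRCm38.p6, read on the gene's strand, with any CCAAT box (CCAAT or its complement ATTGG) in capitals.
Cdh8, chr8:99416422-99416721, minus strand: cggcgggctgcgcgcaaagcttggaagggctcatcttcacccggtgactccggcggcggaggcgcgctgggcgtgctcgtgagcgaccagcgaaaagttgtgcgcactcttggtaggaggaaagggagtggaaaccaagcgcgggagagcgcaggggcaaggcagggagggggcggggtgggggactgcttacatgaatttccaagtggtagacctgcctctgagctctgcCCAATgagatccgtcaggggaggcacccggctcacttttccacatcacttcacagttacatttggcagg
Cdh9, chr15:16728665-16728964, plus strand: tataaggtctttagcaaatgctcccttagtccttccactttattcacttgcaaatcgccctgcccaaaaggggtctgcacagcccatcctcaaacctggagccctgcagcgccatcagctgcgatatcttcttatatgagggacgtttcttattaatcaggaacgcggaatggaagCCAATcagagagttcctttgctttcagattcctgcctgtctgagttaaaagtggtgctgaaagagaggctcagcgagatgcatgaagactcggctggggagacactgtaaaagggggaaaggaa
Pcdh7, chr5:57717831-57718130, plus strand: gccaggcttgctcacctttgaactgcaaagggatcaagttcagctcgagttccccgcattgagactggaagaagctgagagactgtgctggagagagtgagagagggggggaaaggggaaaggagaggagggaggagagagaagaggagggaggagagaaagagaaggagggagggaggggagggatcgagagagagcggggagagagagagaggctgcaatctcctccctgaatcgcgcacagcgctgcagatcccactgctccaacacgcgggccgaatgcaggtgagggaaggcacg
The Cdh8 and Cdh9 windows each hold 1 box and that of Pcdh7 holds none.

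The other 5 tested neuronal members overlapped between the groups. Cdh18, a type II cadherin of the brain, was at 2.78 and 3.68 FPKM in the mutants and at 1.92 and 3.46 FPKM in wild type. Cdh10, another brain type II cadherin, was at 1.78 and 2.56 FPKM in the mutants and at 1.20 and 2.53 FPKM in wild type. In both genes each group had 1 low and 1 high sample, and the groups' high samples were close. Among the delta-2 protocadherins, Pcdh10, which acts in axon growth, was at 2.03 and 2.85 FPKM in the mutants and at 1.85 and 2.16 FPKM in wild type. Pcdh19, an X-linked gene known for epilepsy in humans, was at 2.54 and 1.33 FPKM in the mutants and at 2.07 and 2.11 FPKM in wild type. The mutants thus lay on either side of wild type. The exons of Pcdh10 and Pcdh19 also overlap an annotated gene on the other strand. Pcdh17, a synaptic protocadherin, was under the limit for the test and higher in both mutants, at 0.828 and 1.15 FPKM, against 0.700 and 0.818 FPKM in wild type. It has a row only because mutant 2 reached 1 FPKM, so its direction follows in part from that.

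Of the 48 members, 11 matched the RefSeq promoter table, and 9 of the 11 had a CCAAT box, a common promoter element, where 41.1% of the 27025 genes in that table have one in a window of the same length. The longer form CCAATCA, or TGATTGG on the other strand, which contains the box, was in 5 of the 11 (Cdh18, Cdh9, Pcdh18, Pcdh19 and Pcdh9) and in 9% of all genes. The E-box CAGGTG, the letters through which Snail and Zeb factors bind the E-cadherin gene, or its complement CACCTG, was in 1 of the 11 (Pcdh7) and in 22.6% of all genes. Cdh1, the E-cadherin gene, was not among the 11, nor were Cdh5, Cdh11, Cdh13 and Cdh19, so their promoters were not examined. The motifs were chosen with the sequences in view, and a match is a description. In the 4 delta-2 protocadherins with rows, Pcdh10, Pcdh17, Pcdh18 and Pcdh19, the box nearest before the start site lies 50, 58, 32 and 65 bases from it and reads ATTGG on the gene's strand in each. Pcdh10 has a further box 34 bases after the start site and Pcdh17 a further one 101 bases before it. The nearest box is shown in capitals with 25 bases on either side.
Pcdh10, chr3:45378323-45378377, plus strand: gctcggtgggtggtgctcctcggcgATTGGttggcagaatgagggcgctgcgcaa
Pcdh17, chr14:84443480-84443534, plus strand: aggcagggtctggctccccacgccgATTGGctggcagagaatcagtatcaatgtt
Pcdh18, chr3:49757319-49757373, minus strand: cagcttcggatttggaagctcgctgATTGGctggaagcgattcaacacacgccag
Pcdh19, chrX:133689029-133689083, minus strand: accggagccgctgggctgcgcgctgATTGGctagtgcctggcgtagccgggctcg

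Cdh15 and Cdh3 were near the lower limit of the matrix. Cdh15, M-cadherin of myoblasts and muscle stem cells, was at 1.62 and 2.63 FPKM in the mutants and at 1.66 and 2.03 FPKM in wild type (log2 difference 0.12, limma adjusted p = 0.994). In each group the sample with more skeletal muscle markers had more Cdh15. Cdh3, P-cadherin of basal epithelium, was not tested, at 0.866 and 1.12 FPKM in the mutants and at 0.838 and 0.785 FPKM in wild type.

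The clustered protocadherins lie on chromosome 18 in 3 neighbouring clusters, alpha (36930184 to 37187661), beta (37264938 to 37524479) and gamma (37661793 to 37841873). In the alpha and gamma clusters each gene has a first exon of its own, which is spliced to exons that the whole cluster shares. In GENCODE M21 the 13 alpha genes have 3 exonic segments of 2860 bases in common, and the 21 gamma genes have 3 of 2116 bases. Of the exonic bases of the members measured here, 48.6% to 53.6% in alpha genes and 31.5% to 66.8% in gamma genes are shared within the family. How the counting split these reads thus sets part of each value. Other annotated genes on the same strand also overlap the exons of every gamma member and are not counted in that share. Some alpha and gamma members, Pcdhgc3 among them, also overlap an annotated gene on the other strand. Beta genes share no constant exon, and among the 8 measured only Pcdhb22 shared exonic bases with another annotated family gene (6.88%). Near-identical stretches between paralogs can still make single beta values uncertain.

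In all, 29 clustered members had rows and 26 were tested, of which 2 were higher and 10 lower without overlap, where 12.5% and 19.6% of all genes were. The median log2 difference was -0.10, and 19 of the 26 were negative, as were 50.9% of all genes. The lower Pcdhb14, Pcdhb18 and Pcdhga8 and the negative Pcdhb16 and Pcdhga12 passed the limit for the test only through wild type. Pcdhga5, which was higher, and Pcdha12, which was positive, passed it only through the mutants. These counts thus follow in part from that limit. Their sums were 69.7 and 63.8 FPKM in the mutants and 77.5 and 70.2 FPKM in wild type, so mutant 1 came close to wild type 2.

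The beta genes each encode a whole protein in 1 exon and join alpha and gamma proteins in the same complexes at the cell surface. Summed over 8 genes, the beta cluster held 11.6 and 9.08 FPKM in the mutants, against 14.3 and 12.6 FPKM in wild type. Pcdhb11, Pcdhb16 and Pcdhb18 reached 1 FPKM, which a row required in some sample, in wild type alone. The sums thus follow in part from which genes have a row. Of the 7 tested members 5 were lower in both mutants and 0 higher, where 19.6% of all genes were lower without overlap. Pcdhb14, Pcdhb16 and Pcdhb18 passed the limit for the test only through wild type, where they were higher. Their means were 0.822, 0.68 and 0.563 FPKM in the mutants, against 1.06, 1.07 and 1.01 FPKM in wild type. The counts of lower and of negative members thus follow in part from that limit. All 7 differences were negative, with a median of -0.25 on the log2 scale, except for Pcdhb17, which had 0.01 after quantile normalization, 0.10 without wild type 1 and 0.23 without mutant 2. Leaving out 1 sample moved the median between -0.35 and -0.20. Single members did not pass, with unadjusted p from 0.112 upward, and the difference between the clusters was not tested.

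Pcdhb22 was at 1.53 and 1.16 FPKM in the mutants, against 2.05 and 1.85 FPKM in wild type (log2 difference -0.33, limma adjusted p = 0.994). Pcdhb9 was at 2.01 and 2.04 FPKM in the mutants, against 2.77 and 2.44 FPKM in wild type. Both genes were lower in both mutants, Pcdhb9 with almost no spread between them. Pcdhb18 was at 0.618 and 0.507 FPKM in the mutants, against 1.23 and 0.796 FPKM in wild type. Pcdhb20 was at 1.65 and 1.54 FPKM in the mutants, against 2.12 and 1.95 FPKM in wild type. In Pcdhb14 the gap was tiny, since mutant 1 and wild type 1 were both at 1.02 FPKM to 3 digits. Pcdhb17, the most abundant beta member, overlapped, at 3.49 and 2.18 FPKM in the mutants and at 3.16 and 2.52 FPKM in wild type. Pcdhb16 overlapped by a hair, at 0.869 and 0.491 FPKM in the mutants and at 1.27 and 0.864 FPKM in wild type. Pcdhb11, under the limit for the test, was at 0.394 and 0.537 FPKM in the mutants, against 0.647 and 1.05 FPKM in wild type. A gene needed 1 FPKM in some sample to have a row, and Pcdhb11 reached it only in wild type 2. Its direction thus follows in part from that need.

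**Figure D4:**
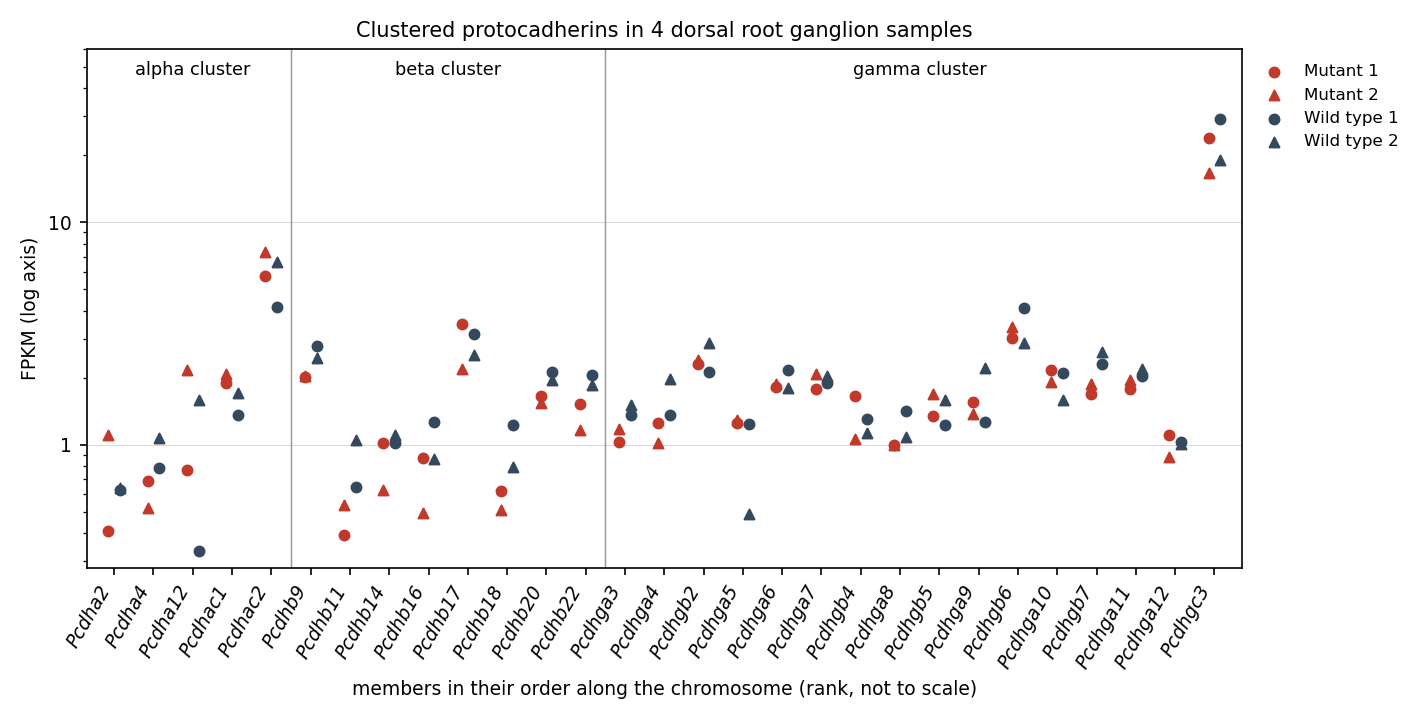
FPKM of the 29 clustered protocadherins (log axis) in each sample, mutants in red left of wild type in dark blue, in their order along chromosome 18. Pcdhgc3 stands at 16.6 to 29.0 FPKM, above every other member of the 3 clusters, and most beta members are lower in the mutants. Of the beta members, Pcdhb14, Pcdhb16 and Pcdhb18 passed the limit for the test only through wild type. Pcdhb11 was not tested and reached 1 FPKM only in wild type 2.

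In the alpha cluster the 3 tested differences were positive, though the sums overlapped. Its 5 genes summed to 9.49 and 13.2 FPKM in the mutants and 7.27 and 11.6 FPKM in wild type. All 3 tested members had positive differences, from 0.24 to 0.35, with a median of 0.26, which was -0.07 without wild type 1 and 0.54 without wild type 2. Pcdhac2, known for the spacing of serotonin axons, made up most of the sum, at 5.74 and 7.32 FPKM in the mutants and at 4.16 and 6.62 FPKM in wild type (log2 difference 0.26, limma adjusted p = 0.994). Its samples ranked as those of the summed neuron markers did, with mutant 2 first and wild type 1 last. Pcdhac1 was at 1.89 and 2.08 FPKM in the mutants, against 1.36 and 1.70 FPKM in wild type, higher in both mutants. Pcdha12 had the largest standard error of the tested members (0.421 on the log2 scale), at 0.768 and 2.17 FPKM in the mutants and at 0.331 and 1.58 FPKM in wild type. Pcdha12 passed the limit for the test only through the mutants, and Pcdha2 and Pcdha4 were not tested. Pcdha2 overlapped, and Pcdha4 was at 0.687 and 0.520 FPKM in the mutants, against 0.788 and 1.07 FPKM in wild type. Pcdha2 has a row only because mutant 2 reached 1 FPKM, and Pcdha4 only because wild type 2 did.

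The gamma cluster held most of the clustered RNA, with 48.7 and 41.5 FPKM in the mutants and 55.9 and 46.1 FPKM in wild type over 16 genes. Pcdhgc3, a C-type gamma isoform that is switched on broadly rather than in single neurons, was at 24.0 and 16.6 FPKM in the mutants and at 29.0 and 19.1 FPKM in wild type. The groups overlapped, with a log2 difference of -0.23 (95% interval -0.91 to 0.45, limma adjusted p = 0.994). Pcdhgb6, the next in level, was at 3.01 and 3.39 FPKM in the mutants and at 4.12 and 2.87 FPKM in wild type.

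Of the 16 gamma members 5 were lower and 1 higher without overlap, where 19.6% and 12.5% of all genes were. The lower ones were Pcdhgb7, Pcdhga4, Pcdhga3, Pcdhga8 and Pcdhga11. Pcdhga8 passed the limit for the test only through wild type, and the higher Pcdhga5 only through the mutants. Pcdhgb7 was at 1.69 and 1.88 FPKM in the mutants, against 2.31 and 2.62 FPKM in wild type (log2 difference -0.31, limma adjusted p = 0.994). Pcdhga4 was at 1.25 and 1.02 FPKM in the mutants, against 1.36 and 1.97 FPKM in wild type (log2 difference -0.31), with mutant 1 close to wild type 1. The higher one, Pcdhga5, was at 1.25 and 1.29 FPKM in the mutants, against 1.24 and 0.487 FPKM in wild type, with wild type 1 level with the mutants and only wild type 2 far below (log2 difference 0.32, and 0.02 without wild type 2). The other 10 overlapped, with log2 differences of -0.23 to 0.10, and outside Pcdhgc3 and Pcdhgb6 none of them exceeded 2.86 FPKM in any sample.

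Genes that act with the family were tested beside it. Of 13 catenins and related proteins with rows, 12 were tested, and the median log2 difference was 0.12. Without overlap 3 were higher and 4 lower, where 12.5% and 19.6% of all genes were. Ctnnb1, beta-catenin, was at 201 and 160 FPKM in the mutants, against 227 and 209 FPKM in wild type (log2 difference -0.28, limma adjusted p = 0.994), and Ctnna1, alpha-catenin, at 76.2 and 77.9 FPKM in the mutants and at 78.7 and 73.5 FPKM in wild type. Pkp4, an armadillo protein of cell junctions, was lower in both mutants, at 16.2 and 11.5 FPKM, against 27.4 and 24.7 FPKM in wild type (log2 difference -0.88, standard error 0.201, limma adjusted p = 0.660, unadjusted 0.00591). Without 1 sample its difference ran from -1.11 to -0.65.

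Of 10 other cadherin superfamily genes with rows, 7 were tested, with a median log2 difference of 0.01. Without overlap 1 was higher and 1 lower, where 12.5% and 19.6% of all genes were. Clstn1, a calsyntenin of synapses and axonal transport, was at 71.1 and 98.4 FPKM in the mutants and at 64.0 and 73.2 FPKM in wild type. Ret, the receptor of the GDNF family that carries cadherin repeats, was at 26.1 and 36.2 FPKM in the mutants and at 24.9 and 37.3 FPKM in wild type. Both overlapped. Among 7 proteases that mature or cleave cadherins, 2 were lower and 0 higher without overlap (median -0.07), where 19.6% and 12.5% of all genes were. Psenen, a gamma-secretase subunit, was at 158 and 209 FPKM in the mutants and at 152 and 183 FPKM in wild type. Adam10, a protease that sheds cadherins, was at 41.0 and 45.5 FPKM in the mutants and at 41.1 and 34.4 FPKM in wild type.

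Regulators of the clusters are chiefly cohesin, its loaders and the insulator protein CTCF, which bring a chosen promoter to a distant enhancer. Of 12 with rows 8 were lower and 1 higher without overlap, where 19.6% and 12.5% of all genes were, with a median log2 difference of -0.19 and 0 past the adjusted threshold. Of their differences 11 were negative, the largest that of Smc3 (-0.31, limma adjusted p = 0.994). The 2 highest in level are given below, and both are among the 3 that overlapped. Rad21, a cohesin subunit, was at 31.8 and 32.9 FPKM in the mutants and at 31.4 and 40.3 FPKM in wild type, with overlap. Smc1a, another cohesin subunit, also overlapped, at 15.8 and 22.1 FPKM in the mutants and at 15.4 and 23.2 FPKM in wild type (log2 difference -0.02, limma adjusted p = 0.995).

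The authors' deposited table of 150 genes that they called different between the groups holds 0 of the 48 members. Its name gives cutoffs of a log2 fold change of 1 and an FDR of 0.05. No member's group means differed that far here, the widest being those of Pcdhb11 (1.82-fold lower in the mutants). The fold cutoff alone would leave the members out, so their absence says nothing of smaller changes.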

How the data were processed

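RNA from 2 mutant and 2 wild type samples was sequenced, per the labels' protocols with standard Illumina libraries. The authors deposited FPKM per gene and sample. They also deposited a list of called genes with group FPKM, log2 fold changes and p-values and q-values, per the file headers in Cuffdiff's format, of which only the gene names were used. The tools named in the submitters' processing notes are CASAVA, TopHat2 2.1.2 and Cufflinks 2.2.1, with the build mm10, and no source used here gives their roles, settings or strandedness. Every gene in the matrix reached 1 FPKM in some sample, so genes that are low throughout are missing from it and reads cannot be recovered.

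Groups and replicate numbers came from the titles. The labels do not say that samples came from separate animals, so the p-values below cover only the variation among the samples at hand, part of which can be technical. limma 3.58.1 (R 4.3.3) was run on log2(FPKM + 1) (variance prior fitted as a trend on the mean), over the 14040 genes that averaged 1 FPKM or more in one of the groups, two-sided, with Benjamini-Hochberg adjustment over all of them and a threshold of 0.05. This scale understates changes of genes with few FPKM. Of the 48 members 43 passed that limit, from Pcdhb18 with a higher group mean of 1.01 FPKM up. Cdh3 (0.993 FPKM) was the nearest below. Pcdhb14, Pcdhb16, Pcdhb18, Pcdhga8 and Pcdhga12 passed only through wild type, and Cdh9, Pcdha12 and Pcdhga5 only through the mutants. The script was tested on simulated data.

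Members and lists were chosen with earlier results of these data known. Values per sample are given for the 4 highest members of each cell type group, for members at an unadjusted p under 0.05, and for members without overlap and a log2 difference of at least 0.5 in size. Other members with values were picked after these were seen. Of the partner lists the 2 highest are named, and any at an unadjusted p under 0.05. Coordinates are from GENCODE M21 and promoters from RefSeq. Alternatives were the pseudocount, the limit on low values, rescaling, quantile normalization, a single variance prior, a replicate block and leaving out each sample.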

Additional observations from a re-analysis of the deposited data

How the results depend on the processing

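No member passed the adjusted threshold under any of the 11 alternatives, and the smallest adjusted p of a member was 0.190, for Cdh5 without mutant 1. With a pseudocount of 0.1, without a limit on low values, with a single variance prior and after rescaling, the counts of members without overlap stayed within 1.5 times those reported. With a minimum of 5 FPKM, 7 members were left, 1 higher and 1 lower without overlap, with a median log2 difference of -0.23. The median was -0.10 with a pseudocount of 0.1 and -0.06 after quantile normalization. Leaving out 1 sample, 8 to 18 members were higher and 17 to 22 lower without overlap, since a lone sample overlaps less easily, and limma then takes it to vary like the other group, and the median ran from -0.10 to -0.05. Cdh5 kept an unadjusted p under 0.05 in limma without mutant 1 (0.00255) but not without mutant 2 (0.103), wild type 1 (0.102) or wild type 2 (0.0823).

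After quantile normalization the log2 difference of Pcdhb17 was 0.01 and that of Pcdhga12 was 0.00, the only members to turn outside the leave-one-out values. Leaving out 1 sample turned 18 of 43. Their ranges were -0.16 to 0.52 (Cdh10), -0.12 to 0.36 (Cdh15), -0.09 to 0.53 (Cdh18), -0.37 to 0.03 (Pcdh18), -0.41 to 0.20 (Pcdh19), -0.12 to 0.83 (Pcdha12), -0.03 to 0.54 (Pcdhac2), -0.26 to 0.23 (Pcdhb17), -0.03 to 0.23 (Pcdhga10), -0.10 to 0.05 (Pcdhga12), -0.15 to 0.02 (Pcdhga6), -0.10 to 0.05 (Pcdhga7), -0.39 to 0.11 (Pcdhga9), -0.21 to 0.10 (Pcdhgb2), -0.10 to 0.26 (Pcdhgb4), -0.04 to 0.17 (Pcdhgb5), -0.29 to 0.12 (Pcdhgb6) and -0.52 to 0.06 (Pcdhgc3). Among partners they were -0.03 to 0.07 (Ctnna1), -0.27 to 0.30 (Ret), -0.08 to 0.32 (Psenen), -0.31 to 0.04 (Rad21) and -0.30 to 0.26 (Smc1a). The cause of these turns was not tested.

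With the replicate number as a block, 61 of 14040 genes passed but 0 members did. The smallest adjusted p of a member was then 0.295, and Cdh5 had an unadjusted p of 0.00933. Same-numbered samples deviated from their group means with a correlation of 0.481 over genes, but with 2 numbers and no such statement in the labels they share only a number. The unknown depth limits what can be said of the 41 members under 5 FPKM.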
